A study of Rattus norvegicus with 2 samples.

Results

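The connexin genes are described here in the hypothalamus of juvenile female rats. The 9 members, *Gja1*, *Gjb6*, *Gjb2*, *Gjb1*, *Gjc1*, *Gjc3*, *Gja4*, *Gja5* and *Gjd2*, were taken from a list of symbols and are 9 of 32883 genes in the files. Hypothalami of Sprague Dawley females were collected at postnatal day (PND) 29 and dissociated with collagenase for droplet-based 3′ single-cell RNA sequencing. In SC300 rats, estradiol benzoate (EB, 300 µg) had been implanted in a silicone capsule at PND 0.5. Control rats received a capsule with oil at PND 0.5 in the methods, whereas the sample label calls them intact. Each group was 1 library from pooled hypothalami of 3 rats, so that the spread between rats was not measured and no test between the groups was possible. Of the deposited barcodes, 4296 of 4488 in Control and 4379 of 4524 in SC300 held at least 200 detected genes and were kept.

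Connexins are membrane proteins that assemble into hemichannels, and hemichannels of adjacent cells dock to form gap junctions through which ions and small metabolites pass. In the brain, astrocytes are known for coupling through connexin 43 (*Gja1*) and connexin 30 (*Gjb6*), oligodendrocytes for connexin 32 (*Gjb1*), and certain neurons for electrical synapses of connexin 36 (*Gjd2*). Vessel walls use connexin 37 (*Gja4*), connexin 40 (*Gja5*), connexin 43 and connexin 45 (*Gjc1*).

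Each cell was given 1 of 13 types by its marker genes, without using any connexin, and 7815 of the 8675 kept cells were typed. Levels are given as UMIs (unique molecular identifiers, tags that count each captured RNA molecule once) of a gene scaled to the total UMIs of a cell type (counts per 1e6 UMIs, CPM). The assay counts the 3′ end of each molecule, and levels were therefore not scaled by gene length. Intervals are exact 95% intervals that cover counting error only. For UMIs given per 100 marker UMIs, they cover the counting error of the connexin alone and take the marker count as fixed. A cell was typed only where lists outside its family scored lower, so another type's marker counts in it were partly set by typing. The files held 52004789 UMIs in Control and 57013099 in SC300, with 7986 and 8182 UMIs in the median kept cell. The libraries shared 9 barcodes. Scrublet marked 70 (1.63%) and 71 (1.62%) cells as doublets, which were kept. The markers of most types were highest in their own type. The limits lay at the ventricular wall, where 67 of 319 Control and 32 of 206 SC300 cells had nearly balanced tanycyte and ependymal scores, and at the vessel wall, where endothelial and mural markers occurred in the same cells. The mural cells were led by *S100a8* and *S100a9*, genes of myeloid cells, before *Acta2* and *Kcnj8*. The stromal cells (11 in Control, 34 in SC300) were led by *Slc22a2*, *Shisa3* and *Tcf21*, and none of their 8 markers was among the 10 leading genes.

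Most members had their UMIs concentrated in a few related cell types. Summed over the members, astrocytes carried the highest level, 4083 CPM in Control and 3616 CPM in SC300, of which *Gja1* made up 89.8% and 89.0%. Mural cells, the pericytes and smooth muscle cells of vessels, had 1098 and 1221 CPM, mostly *Gjc1* and *Gja4*. Of all *Gjc1* UMIs, mural cells held 19.7% and 19.2%, endothelial cells 27.6% and 31.8%, and untyped cells 42.5% and 37.2%. For *Gja4* the shares were 18.6% and 14.0% in mural, 31.4% and 34.2% in endothelial, and 38.6% and 38.0% in untyped cells. Mature oligodendrocytes had 618 and 625 CPM, of which *Gjb1* made up 89.4% and 90.8%. The few stromal cells had 626 and 1413 CPM, and neurons had 44.7 and 29.9 CPM.

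**Figure D1:**
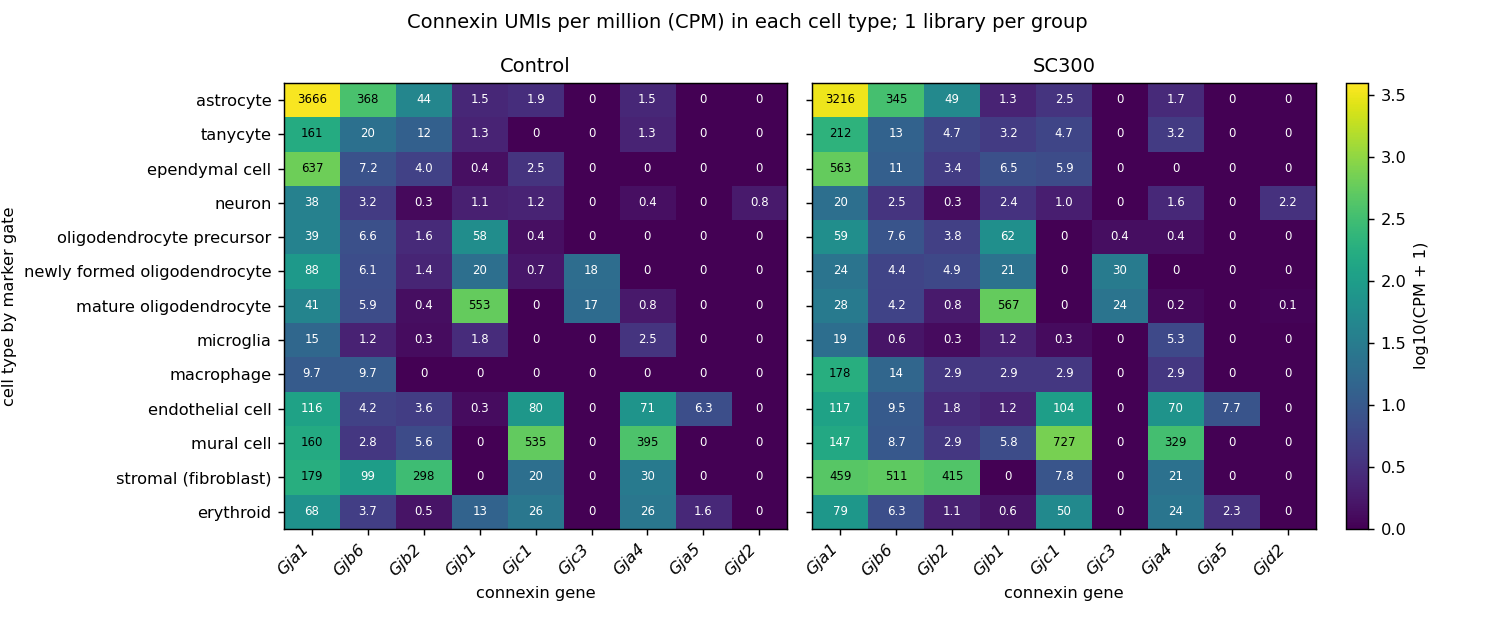
Level of the 9 connexin genes (columns, CPM printed in each cell, colour as log10 of CPM plus 1) in 13 cell types (rows) of the Control and SC300 libraries, 1 library per group. *Gja1* reached 3666 and 3216 CPM in astrocytes, *Gjb1* 553 and 567 CPM in mature oligodendrocytes, and *Gjc1* 535 and 727 CPM in mural cells.

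The promoters of the 3 astrocyte members are shown because these genes shared their main cell type. They are the 250 bases before the transcription start in the RefSeq table of assembly GRCr8, in which 8 of the 9 members were matched (*Gjc1* was not). Capitals mark matches on either strand to the AP-1 site TGACTCA, the GC box GGGCGG, the TATA box TATAAA, the CCAAT box, the E box CAGCTG, the SOX motif AACAAT, the cyclic AMP response element TGACGTCA and the oestrogen response element (GGTCA and TGACC with 3 bases between). The *Gja1* window lies at chr20:36302314-36302563 (plus strand), the first of 2 *Gjb6* windows at chr15:35410139-35410388 (minus strand) and the *Gjb2* window at chr15:35381954-35382203 (minus strand). *Gjb2* and *Gjb6* lie close together on chromosome 15.
*Gja1* promoter: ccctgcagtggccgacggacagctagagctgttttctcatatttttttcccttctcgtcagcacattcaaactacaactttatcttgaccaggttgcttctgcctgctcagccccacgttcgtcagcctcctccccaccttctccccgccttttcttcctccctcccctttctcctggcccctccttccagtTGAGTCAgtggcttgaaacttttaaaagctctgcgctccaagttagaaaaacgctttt
*Gjb6* promoter: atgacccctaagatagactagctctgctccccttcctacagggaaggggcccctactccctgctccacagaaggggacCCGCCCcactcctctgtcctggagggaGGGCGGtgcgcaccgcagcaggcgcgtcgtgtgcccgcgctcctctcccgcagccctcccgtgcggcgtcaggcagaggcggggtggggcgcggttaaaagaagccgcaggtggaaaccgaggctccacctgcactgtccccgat
*Gjb2* promoter: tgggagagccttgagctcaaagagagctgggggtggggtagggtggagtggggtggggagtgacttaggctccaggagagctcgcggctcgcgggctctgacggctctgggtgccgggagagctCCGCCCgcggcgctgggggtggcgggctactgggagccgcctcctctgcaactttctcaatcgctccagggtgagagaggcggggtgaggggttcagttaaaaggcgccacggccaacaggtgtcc

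The *Gja1* window held an AP-1 site, which 4.05% of 33469 promoters held, and no GC box. The first *Gjb6* window held 2 GC boxes and the *Gjb2* window held 1, against 30.5% of all promoters with at least 1. Their GC contents were 68.0% and 67.2% against a median of 51.2%. The second *Gjb6* window, whose letters are not shown, also held a GC box, and its GC content was 51.2%, at the median. The full oestrogen response element was in none of the members' windows and in 0.0239% of all promoters. The single arm GGTCA of this element, searched on both strands and not put in capitals, was in windows of 5 of the 8 matched members (*Gja1*, *Gjb6*, *Gjc3*, *Gja4* and *Gjd2*), against 35.4% of all promoters. A match is a description of these letters and not a binding site.

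*Gja1* was the connexin of nearly every astrocyte. It had 36233 UMIs in 1238 Control astrocytes and 35500 UMIs in 1388 SC300 astrocytes, and 98.9% (interval 98.2 to 99.4) and 99.2% (98.6 to 99.6) of the cells held at least 1 UMI. The median astrocyte held 26 *Gja1* UMIs in Control and 23 in SC300. After every cell was thinned to 2000 UMIs, with 103 and 55 shallower astrocytes left out, the shares were 99% and 98%. Thinned shares come from 1 random draw. In microglia, which should lack *Gja1*, the shares were 9.22% and 7.82% at median depths of 7372.5 and 7990.5 UMIs, against 6352 and 6565 in astrocytes. The level of *Gja1* was 3666 CPM (3628 to 3704) in Control and 3216 CPM (3183 to 3250) in SC300, a log2 ratio of −0.19 (−0.21 to −0.17). This 0.877-fold difference was outside counting error and within 1.5-fold.

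*Gjb6*, the other main astrocyte connexin, was present at a lower level. Its level was 368 CPM (356 to 380) in Control and 345 CPM (334 to 356) in SC300, and 80.2% and 79.5% of astrocytes held a UMI. Thinned to 2000 UMIs, the shares were 52.3% and 47.0%. Astrocytes held 92.1% of all *Gjb6* UMIs in Control and 88.8% in SC300. The log2 ratio was −0.10 (−0.16 to −0.03). With cells over 20% mitochondrial UMIs left out it was −0.03 (−0.10 to 0.05), and the interval included 0. In microglia *Gjb6* was at 1.23 and 0.585 CPM.

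*Gjb2* (connexin 26) was the third and lowest astrocyte connexin, with 436 UMIs and 44.1 CPM (40.1 to 48.5) in Control and 543 UMIs and 49.2 CPM (45.1 to 53.5) in SC300. It was found in 24.1% (21.7 to 26.6) and 27.8% (25.5 to 30.2) of astrocytes, against 0.23% and 0.237% of microglia. The log2 ratio of 0.16 (−0.03 to 0.34) did not exclude equal levels. In cells thinned to 2000 UMIs, *Gjb2* was detected in 10.6% (8.25 to 13.4) of Control astrocytes with a *Gjb6* UMI and in 7.02% (5.02 to 9.51) of those without. In SC300 the shares were 9.25% (7.10 to 11.8) and 7.65% (5.80 to 9.86). The intervals overlapped in both libraries.

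The highest *Gjb2* level was not in astrocytes but in the few stromal cells, which express fibroblast markers. It was 298 CPM (201 to 426) from 30 UMIs in Control and 415 CPM (353 to 484) from 159 UMIs in SC300. *Gjb6* was also present there, at 99.4 CPM from 10 UMIs in Control and 511 CPM from 196 UMIs in SC300, as was *Gja1* at 179 and 459 CPM. Astrocyte markers summed to 59.6 and 279 CPM in these cells, from only 6 UMIs in Control and 107 in SC300. *Gja1* had 300 (178 to 474) and 164 (141 to 191) UMIs for every 100 UMIs of astrocyte markers, against 20.2 and 19.8 in astrocytes. The low astrocyte-marker counts of stromal cells were partly set by the typing. Few cells decided the levels. In Control 1 cell held 70.0% of the *Gjb6* UMIs, and in SC300 3 cells held 55.6% of them.

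*Gja1* also differed among the cells of the ventricular wall, the ciliated ependymal cells and the tanycytes, which line the third ventricle. Cells were ordered by the part of the tanycyte markers in the sum of the ependymal and tanycyte scores. Where that part was under 0.05, *Gja1* was at 810 CPM (774 to 847) in Control and 723 CPM (681 to 766) in SC300. From 0.05 to 0.25 it was at 568 and 441 CPM, from 0.25 to 0.5 at 382 and 397 CPM, and above 0.5, in the cells typed as tanycytes, at 161 CPM (134 to 192) and 212 CPM (177 to 251). The decline was present in both libraries, and the intervals of the first and last bin did not overlap in either. The astrocyte markers summed to 930 and 1154 CPM in the first bin and 745 and 663 CPM in the last. *Gja1* had 69.1 and 62.5 UMIs for every 100 astrocyte-marker UMIs in ependymal cells, against 20.2 and 19.8 in astrocytes. In tanycytes the ratios were 21.6 (18.0 to 25.7) in Control, within counting error of astrocytes, and 31.9 (26.7 to 37.8) in SC300, above them. The typing limited the astrocyte-marker counts of ependymal cells and tanycytes, and its part in these ratios was not tested. *Ttr*, the defining transcript of the choroid plexus, had 7 UMIs in each library, whereas *Folr1*, another choroid plexus marker, was in 238 and 169 cells.

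**Figure D2:**
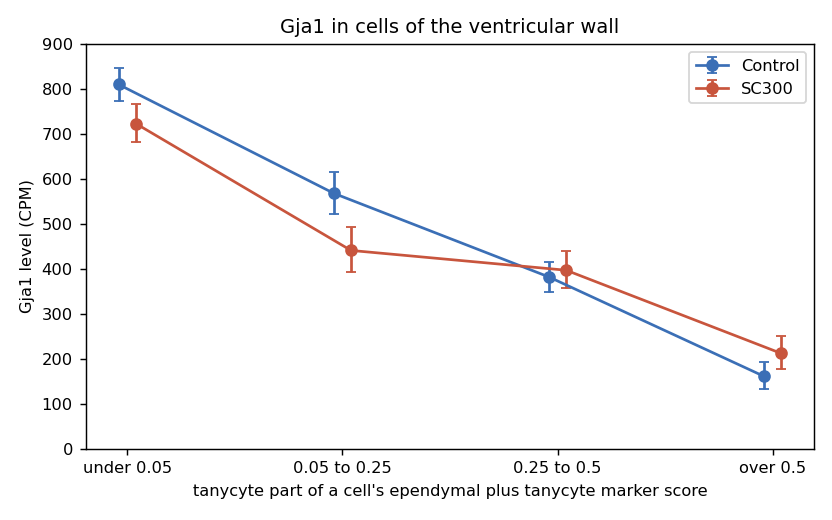
*Gja1* level (vertical axis, CPM) in ventricular wall cells grouped by the tanycyte part of their marker score (horizontal axis), with points for each library and bars for exact 95% counting intervals. The level went from 810 and 723 CPM at the ependymal end to 161 and 212 CPM at the tanycyte end in Control and SC300.

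Clustering divided these cells at another place. Of the cells typed as ependymal, 126 were in a cluster of ciliated cells and 281 in the cluster that held the tanycytes. In the ciliated cluster (72 and 54 cells) *Gja1* was at 818 and 717 CPM, and in the other 175 and 106 ependymal cells it was at 434 and 405 CPM. In the latter, tanycyte markers summed to 2321 and 2815 CPM and ependymal markers to 2421 and 2579 CPM in Control and SC300. The log2 ratio of *Gja1* in tanycytes was 0.39 (0.03 to 0.76) by the markers, and its direction changed with the clusters, −0.07 (−0.20 to 0.05).

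The oligodendrocyte lineage used connexins of another kind, and its members are shown next because they shared their cell type. *Gjb1* lies on chromosome X, with its window at chrX:70541595-70541844 (plus strand), and the *Gjc3* window is at chr12:22024568-22024817 (minus strand). Both held a CCAAT box, as did 34.0% of all promoters, and neither held a GC box or the SOX motif, which 10.3% of promoters held.
*Gjb1* promoter: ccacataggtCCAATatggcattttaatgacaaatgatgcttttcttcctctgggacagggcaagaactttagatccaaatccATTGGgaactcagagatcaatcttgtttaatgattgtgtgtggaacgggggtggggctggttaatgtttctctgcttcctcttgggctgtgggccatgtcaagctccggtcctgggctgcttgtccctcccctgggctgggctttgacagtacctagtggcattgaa
*Gjc3* promoter: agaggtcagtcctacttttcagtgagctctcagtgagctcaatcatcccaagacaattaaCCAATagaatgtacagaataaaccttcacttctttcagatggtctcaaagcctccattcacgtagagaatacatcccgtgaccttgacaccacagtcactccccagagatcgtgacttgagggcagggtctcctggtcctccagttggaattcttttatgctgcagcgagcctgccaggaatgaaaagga

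*Gjb1* was detected at the precursor stage, was lower in newly formed oligodendrocytes and was highest in mature cells. The precursors had 57.9 CPM (48.7 to 68.3) in Control and 62.0 CPM (52.9 to 72.3) in SC300. Newly formed oligodendrocytes had 19.6 CPM (13.1 to 28.1) and 21.4 CPM (15.2 to 29.2), below the precursors in both libraries with intervals that did not overlap. Mature oligodendrocytes had 553 CPM (537 to 569) and 567 CPM (553 to 582), with a UMI in 92.3% and 96.6% of cells.

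The precursor level was spread over many cells and came with few UMIs of the mature markers (115 in Control, 154 in SC300). A cell was typed as a precursor only where the mature list scored lower, so these low counts were partly set by the typing. *Gjb1* was in 30.3% (25.6 to 35.2) and 33.5% (28.7 to 38.6) of precursors, with at most 3 UMIs in a cell, against 1.38% and 0.948% of microglia. Median depths were 6460 and 6940 UMIs in precursors and 7372.5 and 7990.5 in microglia. For every 100 UMIs of the markers of mature oligodendrocytes, *Gjb1* had 122 UMIs (102 to 144) in Control precursors and 106 (90.8 to 124) in SC300 precursors, and 2.76 and 2.72 in mature cells.

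In mature cells without *Klk6*, a protease of mature oligodendrocytes (29 and 22 cells), *Gjb1* was at 247 and 303 CPM, against 567 and 575 CPM in cells with *Klk6*. Median depths were 4990 and 8471 UMIs without *Klk6* and 20141.5 and 20928 UMIs with it.

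*Gjc3* was the member most restricted to the lineage. All 162 of its UMIs in Control were in newly formed and mature oligodendrocytes, 27 and 135 UMIs. In SC300 these stages held 55 and 250 of 306 UMIs, and the last UMI was in a precursor. The level was 17.0 CPM (14.3 to 20.2) in Control and 23.5 CPM (20.7 to 26.6) in SC300 in mature cells, log2 0.46 (0.16 to 0.78), and 18.2 and 30.2 CPM in newly formed cells, log2 0.73 (0.04 to 1.45). The share of mature cells with a UMI was 26.9% (22.5 to 31.7) and 38.5% (34.0 to 43.1) at median depths of 19858 and 20809 UMIs. Thinned to 2000 UMIs it was 3.56% and 5.62%, near the level of a single UMI, and no order was read from it. The intervals of newly formed and mature cells overlapped in both libraries for *Gjc3*, which was not so for *Gjb1*. Within newly formed cells, *Gjc3* was at 33.1 CPM (15.9 to 60.9) and 55.1 CPM (36.9 to 79.1) in those that held *Mobp* and *Mog*, transcripts of myelin proteins (12 and 18 cells), and at 9.55 CPM (3.10 to 22.3) and 12.0 CPM (4.41 to 26.2) in those without *Mog* (63 and 47 cells). The markers of mature cells summed to 2514 CPM in newly formed cells of Control and 3583 CPM in those of SC300, and their part in the *Gjc3* difference was not tested.

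**Figure D3:**
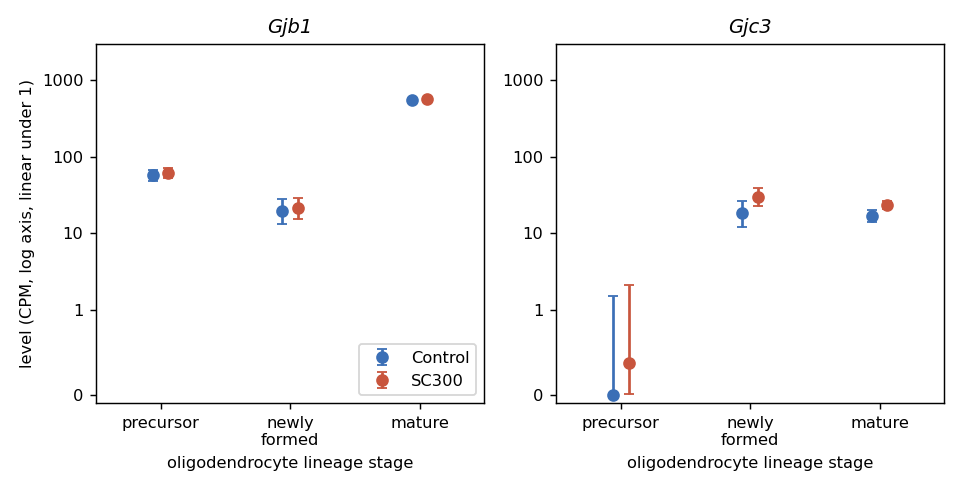
Levels of *Gjb1* and *Gjc3* (CPM, log axis that is linear under 1) at 3 stages of the oligodendrocyte lineage, with points for each library and bars for exact 95% counting intervals. *Gjb1* was lowest in newly formed cells (19.6 and 21.4 CPM), whereas *Gjc3* had 0 and 1 UMIs in precursors and similar levels at the later stages (18.2 and 30.2 CPM, then 17.0 and 23.5 CPM).

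In vessel walls the leading connexins were *Gjc1* and *Gja4*. The *Gja4* window lies at chr5:144920325-144920574 (minus strand), and it is shown as the vascular example. It held a GC box and an E box, the latter in 12.0% of all promoters.
*Gja4* promoter: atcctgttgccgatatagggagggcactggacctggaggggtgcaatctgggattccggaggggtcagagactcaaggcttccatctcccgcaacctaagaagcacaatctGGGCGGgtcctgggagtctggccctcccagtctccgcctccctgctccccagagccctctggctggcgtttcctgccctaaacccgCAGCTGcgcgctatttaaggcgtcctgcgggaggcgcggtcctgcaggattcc

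*Gjc1* was at 535 CPM (462 to 616) in 50 Control mural cells and at 727 CPM (640 to 823) in 49 SC300 mural cells, and 80.0% and 85.7% of these cells held a UMI. *Gja4* was at 395 CPM (332 to 466) and 329 CPM (271 to 395), in 74.0% and 79.6% of cells. Microglia had 0 and 1 *Gjc1* UMIs, and 2.46 and 5.27 CPM of *Gja4*. The log2 ratio of *Gjc1* was 0.44 (0.17 to 0.72) and that of *Gja4* −0.26 (−0.63 to 0.10). With a lead of 2 times over the next marker list of other cells than mural required, the *Gjc1* ratio was 0.16 (−0.20 to 0.51) and no longer excluded equal levels. With cells over 10% mitochondrial UMIs left out, the *Gja4* ratio was −1.09 (−2.39 to 0.02), past 1.5-fold.

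Cells typed as endothelial also held both, *Gjc1* at 79.9 and 104 CPM and *Gja4* at 71.3 and 69.6 CPM. In the 91 Control endothelial cells with a *Gjc1* UMI, pericyte markers summed to 3047 CPM, against 738 CPM in the 254 without, and in SC300 to 3098 against 683 CPM. Median depths were 14004 UMIs with and 5579 without a *Gjc1* UMI in Control, and 17370 and 6238.5 in SC300. Endothelial cells of an endothelial cluster (294 and 256 cells) had mural-marker sums of 757 and 856 CPM, and 31.9 and 33.9 CPM of *Gjc1*. Endothelial cells of a cluster with mixed endothelial and mural markers (47 and 51 cells) had mural-marker sums of 4210 and 4267 CPM, and 150 and 212 CPM of *Gjc1*.

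For every 100 mural-marker UMIs, *Gjc1* had 4.35 UMIs (3.76 to 5.02) in Control mural cells and 5.49 (4.83 to 6.21) in SC300 mural cells. Endothelial cells of the endothelial cluster had 4.21 (3.29 to 5.32) and 3.96 (3.11 to 4.96), and those of the mixed cluster 3.56 (3.02 to 4.18) and 4.97 (4.45 to 5.54). The cells of the mixed cluster that no type took (73 and 76 cells) had 4.67 (4.23 to 5.15) and 4.36 (3.97 to 4.77). The ratio of *Gjc1* to mural markers lay between 3.56 and 5.49 in cells whose *Gjc1* levels lay between 31.9 and 727 CPM. Within this range the intervals of some sets did not overlap. Within a library these were the untyped cells and the endothelial cells of the mixed cluster in Control, and the mural and untyped cells in SC300. Between the libraries they were the endothelial cells of the mixed cluster, at 3.56 in Control and 4.97 in SC300. The *Gjc1* levels of the latter did not overlap either, 150 CPM (127 to 176) and 212 CPM (190 to 236). The gaps within a library were small, and the intervals of the ratios take the marker count as fixed. No difference in the ratio was therefore read from them, and the larger gap between the libraries was not tested. *Gja4* had between 2.48 and 3.85 UMIs for every 100 mural-marker UMIs in the same 4 sets of cells.

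**Figure D4:**
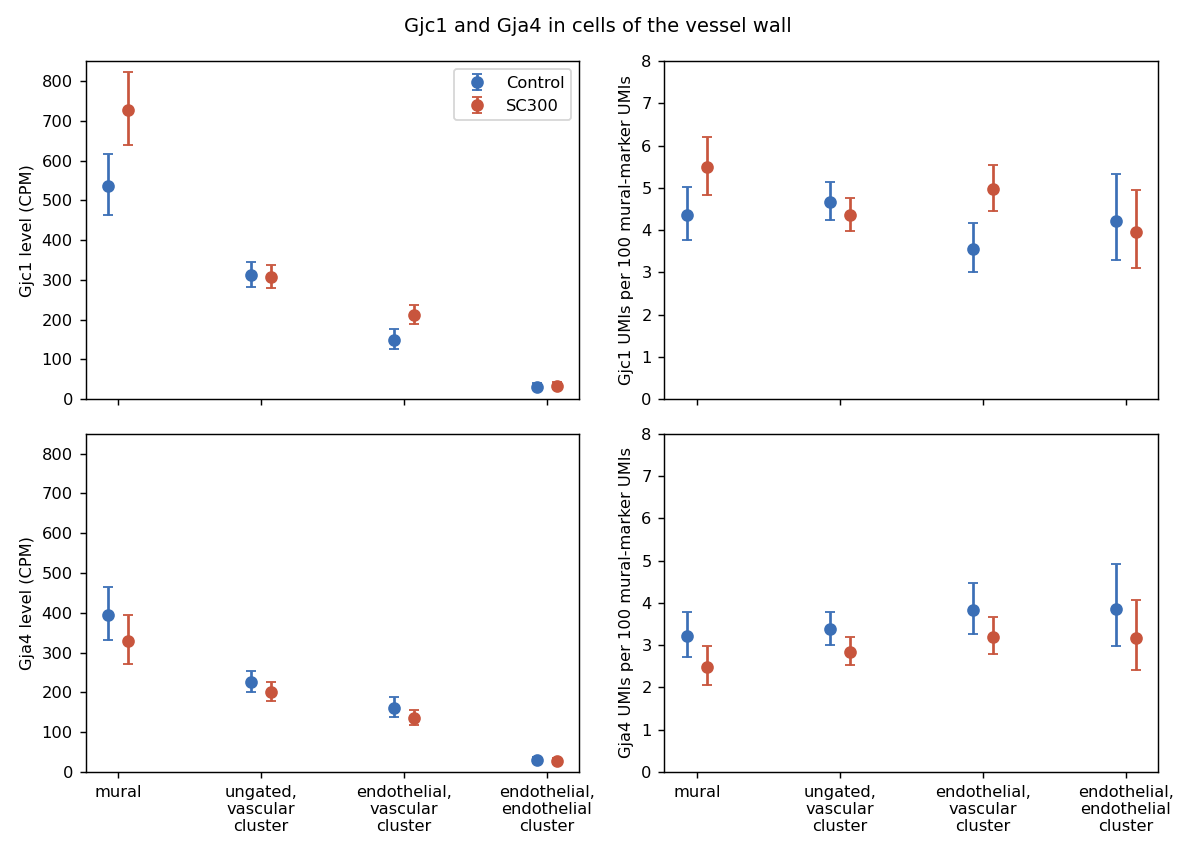
Level of *Gjc1* and *Gja4* (left, CPM) and their UMIs for every 100 UMIs of mural-cell markers (right) in 4 sets of vessel-wall cells of each library. Bars are exact 95% counting intervals, which on the right take the marker count as fixed. The vascular cluster is the one with mixed endothelial and mural markers. *Gjc1* went from 535 and 727 CPM in mural cells to 31.9 and 33.9 CPM in endothelial cells of the endothelial cluster, whereas its ratio to mural markers lay between 3.56 and 5.49.

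Endothelial cells with arterial markers differed in *Gja4* and *Gja5*, connexins known from arterial endothelium. In arterial cells (52 in Control, 53 in SC300) *Gja4* was at 165 CPM (136 to 198) and 138 CPM (117 to 163), and in the other endothelial cells (293 and 260) at 47.2 and 44.8 CPM. *Gja4* had 6.28 and 4.81 UMIs for every 100 mural-marker UMIs in arterial cells, above the 3.21 and 2.48 of mural cells with intervals that did not overlap, and 2.69 and 2.25 in the other endothelial cells. *Gjc1* had 4.95 and 4.98 in arterial cells. The typing limited mural-marker counts in endothelial cells but not in mural cells, and its part in the *Gja4* gap was not tested. Median depths were 11154 and 14857 UMIs in arterial cells and 6102 and 7196.5 in the others.

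*Gja5* was the sparsest vascular member, with 21 UMIs in Control and 31 in SC300 in all endothelial cells (6.26 and 7.74 CPM) and 0 in mural cells, which allows up to 8.40 and 8.66 CPM there. Of these, 15 and 16 UMIs were in arterial cells, at 21.9 CPM (12.3 to 36.1) and 15.1 CPM (8.61 to 24.5), against 2.25 CPM (0.825 to 4.9) and 5.09 CPM (2.85 to 8.40) in the others. The arterial level was higher in both libraries, and the intervals did not overlap. The log2 ratio of SC300 over Control in endothelial cells was 0.30 (−0.54 to 1.18) and gave no direction.

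*Gja1* was in 44.1% of endothelial cells in both libraries, at 116 CPM (105 to 128) and 117 CPM (107 to 128). It had 36.2 and 31.3 UMIs for every 100 astrocyte-marker UMIs there, above the 20.2 and 19.8 of astrocytes. In mural cells (160 and 147 CPM) these ratios were 21.7 (16.4 to 28.1) and 17.5 (13 to 23), and in microglia 22.6 and 20.3, which are within counting error of astrocytes. The typing limited the astrocyte-marker counts of endothelial cells, mural cells and microglia, and its part in the ratios was not tested.

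*Gjd2*, the connexin of electrical synapses between neurons, was close to the detection limit. Control had 10 UMIs, all in neurons, and SC300 had 30, of which 28 were in neurons. They lay in 2.16% (1.04 to 3.93) of 464 Control neurons and in 5.59% (3.68 to 8.09) of 465 SC300 neurons, at median depths of 24213 and 23129 UMIs. The level was 0.836 CPM (0.401 to 1.54) and 2.21 CPM (1.47 to 3.20). GABAergic neurons had 6 and 16 of these UMIs and glutamatergic neurons 2 and 7. With 38 UMIs in both libraries the gene was below the 50 UMIs required for a ratio. Thinned to 2000 UMIs, the shares were 0.442% and 0.654%. The microglia of both libraries held no *Gjd2* UMI.

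Between the libraries, members with at least 50 UMIs in a cell type gave 33 values, of which 8 were at least 1.5-fold higher and 2 at least 1.5-fold lower in SC300. In astrocytes 0 of 3 members passed 1.5-fold, beside 3.32% of all 10218 such genes higher and 2.05% lower in SC300. In mature oligodendrocytes it was 0 of 4, beside 2.26% higher and 3.15% lower, and in mural cells 0 of 3, beside 5.98% and 6.87%. Tanycytes had 0 of 1 (4.78% higher and 9.01% lower) and microglia 0 of 1 (2.56% and 4.01%).

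The 10 values past 1.5-fold mostly rested on few UMIs or few cells. *Gja1* in neurons was at 37.7 CPM in Control and 19.9 CPM in SC300, log2 −0.92 (−1.15 to −0.70), where 3.43% of genes were higher and 3.06% lower in SC300. The share of neurons with a UMI was 16.8% in both, and 3 cells held 39.5% and 44.0% of the UMIs. Astrocyte markers summed to 166 and 113 CPM in neurons. *Gja1* had 22.7 (20.7 to 24.9) UMIs for every 100 astrocyte-marker UMIs in Control neurons and 17.7 (15.6 to 20) in SC300 neurons. In astrocytes these ratios were 20.2 and 19.8. GABAergic neurons had 44.8 and 12.5 CPM of *Gja1*, and glutamatergic neurons had 28.7 and 29.7 CPM. In newly formed oligodendrocytes it was at 87.7 and 23.6 CPM, log2 −1.89 (−2.43 to −1.39), where 3.87% were lower, and 3 cells held 84.6% and 79.1% of the UMIs. Astrocyte markers were lower with it, at 862 and 506 CPM, and *Aqp4* (72.9 and 37.8 CPM), *Slc1a3* (117 and 71.3 CPM) and *Atp1b2* (77.6 and 34.6 CPM), 3 of 4 astrocyte partner genes measured there, were over 1.5-fold lower. *Aqp4* is also an astrocyte marker, so its difference is part of that marker sum. For every 100 astrocyte-marker UMIs in newly formed cells, *Gja1* had 10.2 (8.5 to 12.1) UMIs in Control and 4.66 (3.37 to 6.28) in SC300. In precursors *Gja1* was higher in SC300, log2 0.61 (0.23 to 1.00), where 2.48% were higher and 2.5% lower, and the direction changed when Scrublet doublets were left out (log2 −0.67) and with clusters (log2 −0.63). Astrocyte markers summed to 937 CPM in Control precursors and 886 CPM in SC300 precursors. For every 100 of their UMIs *Gja1* had 4.14 (3.35 to 5.07) and 6.7 (5.7 to 7.84) there. The part of astrocyte RNA in the values of neurons, newly formed cells and precursors was not tested.

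In 41 SC300 macrophages *Gja1* had 62 UMIs, 40 of them in 1 cell, against 1 UMI in 14 Control macrophages, log2 4.20 (1.67 to 9.53), and astrocyte markers summed to 824 and 67.7 CPM. There 16.8% of genes were higher and 4.97% lower in SC300. Stromal cells gave *Gja1* with log2 1.36 (0.66 to 2.15) and *Gjb6* with log2 2.36 (1.45 to 3.45), where 20.6% were higher and 6.69% lower. With cells over 10% mitochondrial UMIs left out, the direction turned for *Gja1* there, log2 −0.45 (−1.67 to 0.79). *Gjc1* in erythroid barcodes, log2 0.96 (0.44 to 1.5), came beside 24.2% of genes higher and 3.23% lower. Endothelial markers summed to 2167 and 3061 CPM there and mural markers to 737 and 1259 CPM, and their part was not tested. *Gjb6* was higher in endothelial cells, log2 1.18 (0.27 to 2.18) from 14 and 38 UMIs, where 4.32% were higher and 2.88% lower. In ependymal cells its log2 ratio was 0.67 (−0.04 to 1.39), where 3.48% were higher and 5.86% lower, and 1 SC300 cell held 56.8% of the UMIs. *Gjc3* in newly formed oligodendrocytes, given above, came beside 3.12% higher. In the 860 cells that no type took, *Gja1* was at 492 and 269 CPM, log2 −0.87 (−0.99 to −0.76), and *Gjb6* at 37.4 and 21.3 CPM, log2 −0.81 (−1.25 to −0.38). Astrocyte markers had 6231 and 3635 UMIs in these cells, and for every 100 of them *Gja1* had 24.7 (23.5 to 26.0) and 25.7 (24.0 to 27.4) UMIs and *Gjb6* 1.88 (1.55 to 2.25) and 2.04 (1.60 to 2.56). There 1.97% of genes were higher and 9.06% lower in SC300.

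**Figure D5:**
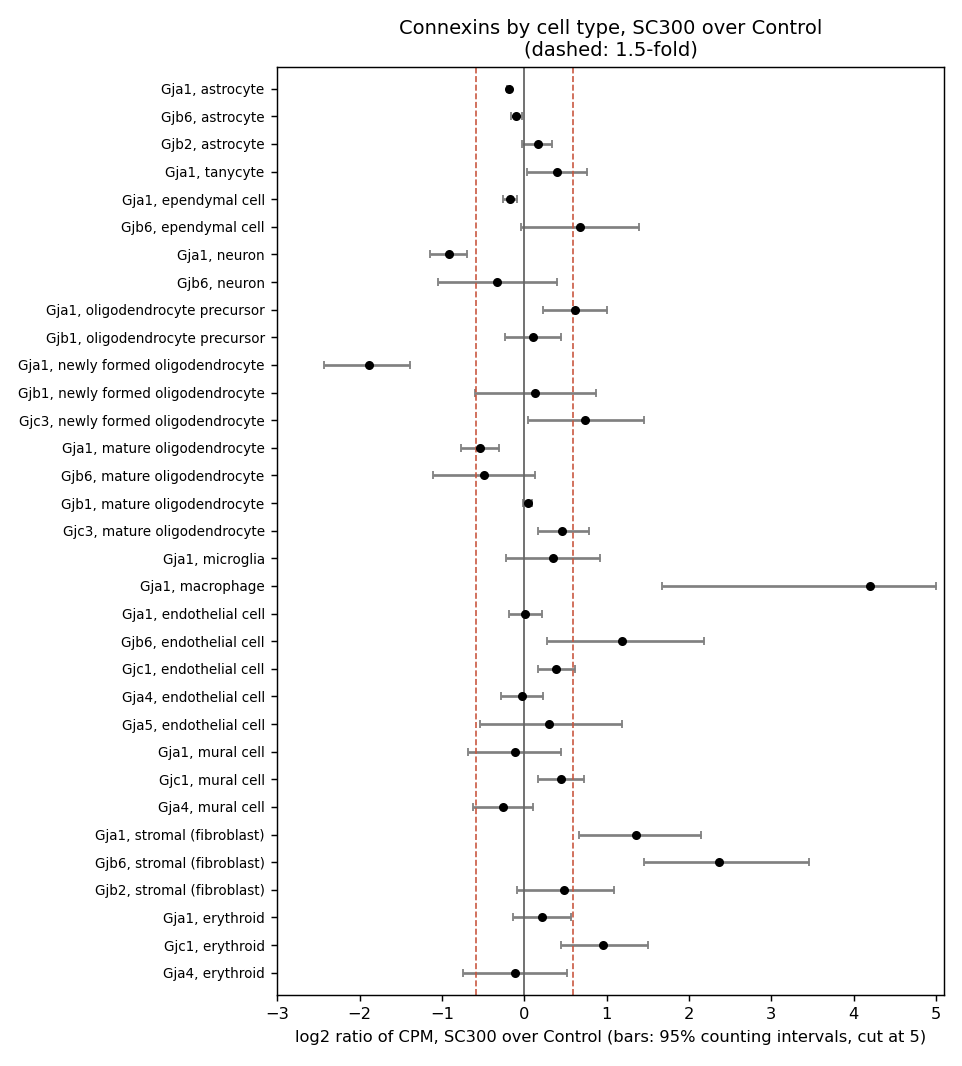
Log2 ratio of CPM in SC300 over Control (horizontal axis) for each member and cell type with at least 50 UMIs (33 rows), with exact 95% counting intervals as bars, cut at 5, and dashed lines at 1.5-fold. The ratios in the main cell type chosen for each member lay between −0.26 (*Gja4*, mural cells) and 0.46 (*Gjc3*, mature oligodendrocytes). The choice was astrocytes for *Gja1*, *Gjb6* and *Gjb2*, and mature oligodendrocytes for *Gjb1* and *Gjc3*. It was mural cells for *Gjc1* and *Gja4*, and endothelial cells for *Gja5*. It left out *Gjc3* in newly formed oligodendrocytes, at 0.73, and *Gjb2* in stromal cells.

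Over all kept cells the cell types no longer stood apart. There *Gjc3* had a log2 ratio of 0.78 (0.50 to 1.07), the only 1 of 8 members past 1.5-fold, beside 2.77% of genes higher and 3.75% lower. *Gjb1* had 0.32 (0.27 to 0.38) against 0.04 (−0.02 to 0.09) within mature oligodendrocytes, of which Control held 375 (8.73% of kept cells) and SC300 465 (10.6%). *Gja1* had −0.22 (−0.24 to −0.20).

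Genes whose levels over the 13 types of both libraries (26 values) were most like those of a member were named by Pearson's *r* of log2(CPM + 1), as a description over points that share cells and libraries. For *Gja1* they were *Prodh1* (0.939), *Slc4a4*, a bicarbonate cotransporter (0.929), and *Fzd2* (0.917). For *Gjb6* they were *Slc41a1* (0.90), the member *Gjb2* (0.876) and *Fzd2* (0.843). For *Gjb2* they were *Fbln1* (0.911), *Igfbp2* (0.905) and *Slc41a1* (0.882). For *Gjb1* they were *Mesp2* (0.919), *Fa2h*, an enzyme of myelin lipid synthesis (0.910), and *Ninj2* (0.904). *Gjc3* was followed by *Gpr62* (0.973), *Map6d1* (0.958) and *Mag*, a myelin adhesion protein (0.954). *Gjc1* was followed by *Itga1* (0.95), *Foxs1* (0.943) and *Cgnl1* (0.943), and *Gja4* by *Foxs1* (0.958), *Anpep*, an aminopeptidase of pericytes (0.954), and *Slc2a4* (0.946).

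The listed partners of connexins were also compared between the libraries in astrocytes. All 6 astrocyte partner genes compared were within 1.5-fold, with a median log2 ratio of −0.08. Of all genes there, 3.32% were higher and 2.05% lower in SC300, so most genes were within 1.5-fold. *Aqp4* and *Slc1a2* are also among the markers by which astrocytes were typed. The log2 ratio was below 0 for *Aqp4*, the water channel of astrocyte endfeet, −0.16 (−0.18 to −0.13), for the glutamate transporter *Slc1a3*, −0.08 (−0.10 to −0.06), and for *Atp1b2*, a sodium pump subunit, −0.08 (−0.10 to −0.06). It was above 0 for glutamine synthetase *Glul*, 0.18 (0.14 to 0.21), and for the glutamate transporter *Slc1a2*, 0.11 (0.02 to 0.20). For the potassium channel *Kcnj10* it was −0.40 (−1.05 to 0.25). Of 13 scaffold and assembly genes 8 had 50 UMIs or more in astrocytes, and none passed 1.5-fold, beside the same shares of all genes. Among them was *Tjp1*, the tight junction protein that binds connexins (132 and 128 CPM). Of the other connexins compared, 9 were in the files, and none had 50 UMIs in a cell type. Pannexins, channel proteins of a related fold, were sparse. In neurons *Panx1* was at 7.36 and 7.82 CPM. In newly formed oligodendrocytes, where 3.12% of genes were higher in SC300, it was at 15.5 and 34.0 CPM, log2 1.13 (0.42 to 1.89). This was the only pannexin value over 1.5-fold apart among those with at least 50 UMIs in the cell types compared. In ependymal cells *Panx1* was at 6.33 and 2.16 CPM from 30 and 7 UMIs, below that minimum.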

How the data were processed

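The authors deposited a matrix of UMI counts per gene and barcode for each of the 2 libraries, made with Cell Ranger 3.0.1 per the file headers, with no normalization. All per-sample columns were used. Barcodes with at least 200 detected genes were kept. The members and lists were chosen with earlier results of these data known. A cell took the type whose marker list had the highest score (each marker scaled to its 99th percentile), with at least 3 detected markers. It also needed a lead of 1.5 times over the next list outside its own family. The families were tanycytes with ependymal cells, the oligodendrocyte stages with their precursors, and pericytes with smooth muscle cells. Within a family the highest score alone decided, with no lead required. This scoring was set after the files were read, without connexin counts.

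Levels and log2 ratios of CPM were computed with scipy 1.17.1 and numpy 2.4.6 under Python 3.11.15, with exact Poisson, Clopper-Pearson and conditional binomial 95% intervals. The ratio step was tested on simulated data. Ratios needed 50 UMIs over both libraries, and 1.5-fold served as the mark of size. A level at 0 was bounded by 3 UMIs. Cells were thinned to 2000 UMIs for shares and co-detection. Named genes were the members, listed relatives and partners, and the 3 genes most like each member with at least 200 UMIs. Alternatives changed the cell filters, scaling, thinning and typing, the last with scanpy 1.11.5 clusters. Protein sequences were not used here, and some listed genes are not reported here. Rats were pooled, so the libraries are not replicates.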

Additional observations from a re-analysis of the deposited data

Results flagged for a closer look

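*Gja1* also appeared in barcodes that were left out for having fewer than 200 detected genes. In Control 10 UMIs lay in 10 of 192 such barcodes, which is 16.1 CPM, and haemoglobin genes made up 41.4% of their UMIs. In SC300 there were 3 UMIs in 145 barcodes (4.82 CPM), with 36.7% haemoglobin. The medians over these barcodes were 108 detected genes and 85.5% mitochondrial UMIs in Control, and 111 genes and 87.6% in SC300. The Control value was picked out because it lies in data that no main comparison used and is above the 3 UMIs that a count of 0 allows. It is close to the level in Control microglia (14.7 CPM).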

How the results depend on the processing

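No paired analysis was possible because each group had 1 library, and for the same reason no library could be left out in turn. Of the log2 ratios in the chosen main cell types under the alternatives, 92 values stayed within the counting interval and 10 moved out of it. *Gja5* in endothelial cells ranged from −0.44 to 1.24, so its sign was not fixed. With cells over 20% mitochondrial UMIs left out, *Gja1* in astrocytes was at −0.16 and *Gjb6* at −0.03. With a limit of 10% they were at −0.15 and −0.01, *Gjb2* in astrocytes was at 0.39, *Gjb1* in mature oligodendrocytes at 0.32 and *Gja4* in mural cells at −1.09. With every cell weighted alike, *Gja1* in astrocytes was at −0.22. With clusters in place of markers, *Gja5* in endothelial cells was at 1.24. With a lead of 2 times over the next list outside the family, an alternative chosen after seeing the data, *Gjc1* in mural cells was at 0.16. The direction turned for *Gja1* in tanycytes (−0.07, clusters), in precursors (−0.63 with clusters, −0.67 without Scrublet doublets), in mature oligodendrocytes (0.16 without Scrublet doublets, 1.15 with the 10% limit) and in stromal cells (−0.45 with the 10% limit), and for *Gjc1* in endothelial cells (−0.17 with the 10% limit). Their cause was not tested. The number of values over 1.5-fold apart was 10 of 33, against 18 with at least 20 UMIs, 6 with at least 100 UMIs and 6 with the 10% limit. The UMI minimum changes how many values are compared. The share of all genes is not given beside these alternative counts, and no rise or fall was read from them. Mural cells had no value under clusters, since no cluster took their name. Shares of cells and co-detection moved with depth or typing in 19 and 25 values and stayed in 35 and 11. Levels that rest on few UMIs per library are limited by depth, such as *Gjd2* (10 and 30 UMIs over all kept cells) and *Gja5* (29 and 44 UMIs).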
